A study of Homo sapiens with 9 samples.

Results

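The circadian clock genes and clock output factors described here are BMAL1, CLOCK, PER2, PER3, CRY1, CRY2, NR1D2, RORA, TEF and NFIL3, chosen by name and taken with every probe set that the platform annotation gives to them under a current or older symbol (ARNTL for BMAL1). They are 10 of the 18132 genes with a probe set of their own on the arrays and are read by 26 probe sets. The names were proposed with results of these arrays known, so the members' values and counts are a description of them and support nothing beyond it.

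The study measured gene expression in R-HepG2, an insulin-resistant form of the human hepatoma line HepG2, on 9 one-colour Affymetrix 3' expression arrays. The cells went without serum overnight and then stood for 4 h in DMEM with biomineralized insulin (BI, 3 arrays), DMEM with insulin (3 arrays) or DMEM alone (medium, 3 arrays). Both insulin preparations held 40 ug/ml of insulin. The comparisons ask how each preparation differs from medium and how they differ from each other. No group held the mineral without insulin, and a single time was sampled, so a change of clock phase and a change of level cannot be told apart. The cell line tag reads HepG2 for the BI and insulin samples and R-HepG2 for the medium samples, while the protocols describe R-HepG2 in every group; a difference between those forms of the line cannot be told apart from the treatments against medium. No source used here says whether the 3 replicates of a group were separate cultures, so every p-value here rests on array-to-array spread that could be purely technical.

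Each probe set carries 1 deposited log2 value per array, with array medians of 5.46 to 5.50. Replicates of 1 group correlated with each other at r = 0.998 across probe sets. Of 15 liver markers, 13 were analysed here and 4 of these had a mean above 4.74 log2, the level below which the dimmest 40% of probe sets lay. APOA1 averaged 5.87, AHSG 5.27, TTR 5.23 and TF 4.88, whereas the liver markers ALB, AFP and APOB lay at 3.40, 2.93 and 2.78 log2. The identity of the line was not tested. The summed log2 level of the 13 liver markers was 53.4 to 54.3 on BI arrays, 53.5 to 54.1 on insulin arrays and 53.2 to 54.3 on medium arrays. Of 7 lung epithelial markers 4 were above that level (NAPSA at 6.46, NKX2-1 at 6.41, SFTPC at 5.95 and SFTPB at 5.06). SFTPD at 3.91, SCGB1A1 at 3.28 and SFTPA1 at 2.80 were below that level. The sum of the 7 was 34.3 to 34.8 on BI arrays, 33.5 to 33.8 on insulin arrays and 33.0 to 33.9 on medium arrays. Squamous markers were above it for 3 of 3, with sums of 16.8 to 17.3 on BI arrays, 16.8 to 17.0 on insulin arrays and 16.3 to 16.6 on medium arrays, fibroblast markers for 3 of 4 and blood markers for 2 of 3. The poly-A spike-in controls, bacterial RNAs added during labelling, averaged 7.62 ± 0.16 log2 with BI, 7.23 ± 0.02 with insulin and 7.22 ± 0.07 with medium (SD, n = 3 each). The 3 prime minus 5 prime signal of actin averaged 3.07 log2 with BI, 3.19 with insulin and 3.02 with medium. That of GAPDH averaged 0.20 with BI, 0.17 with insulin and 0.16 with medium. The part of these levels and differences in the results was not tested.

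The mammalian clock is a feedback loop of transcription. BMAL1 and CLOCK bind E-boxes as a dimer and switch on the PER and CRY genes, whose proteins come back to the nucleus and inhibit the dimer. A second loop sets BMAL1 itself: the nuclear receptor RORA activates it through ROR response elements (ROREs), and the REV-ERB receptors, of which NR1D2 is the beta form, repress it through the same elements. Another arm runs through D-boxes, which TEF, a PAR bZIP factor, activates and NFIL3 (also called E4BP4) represses. In liver this clock is known for its hold on glucose, lipid and bile acid metabolism, and feeding and insulin are known to shift it.

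The promoters of the members were searched for the letters of these elements, without any measure of binding. RefSeq (GRCh38.p14) lists 17 promoter windows for the 10 members, each from 250 bases before to 50 bases after a transcription start. The windows were searched on both strands for the E-box (CACGTG), the E-prime box (CACGTT), the D-box (TTANGTAA), the RORE (TAGGTCA or TGGGTCA), the cAMP response element (TGACGTCA) and the heat shock element. Windows of 5 members are shown because these genes had the largest differences in either direction and each hold at least 1 motif. Where a member has several windows, only a window with a match is printed. Capitals mark the motifs. Positions are given in bases from the start.
BMAL1, window 2 of 2, chr11:13277540-13277839, + strand, RORE at 30: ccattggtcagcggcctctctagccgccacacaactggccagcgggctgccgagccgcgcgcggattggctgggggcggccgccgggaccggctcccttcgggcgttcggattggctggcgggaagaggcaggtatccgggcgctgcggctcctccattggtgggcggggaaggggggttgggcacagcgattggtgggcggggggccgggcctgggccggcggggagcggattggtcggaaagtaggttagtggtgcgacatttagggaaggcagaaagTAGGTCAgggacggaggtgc
NFIL3, window 1 of 2, chr9:91423783-91424082, - strand, RORE on the opposite strand at -9: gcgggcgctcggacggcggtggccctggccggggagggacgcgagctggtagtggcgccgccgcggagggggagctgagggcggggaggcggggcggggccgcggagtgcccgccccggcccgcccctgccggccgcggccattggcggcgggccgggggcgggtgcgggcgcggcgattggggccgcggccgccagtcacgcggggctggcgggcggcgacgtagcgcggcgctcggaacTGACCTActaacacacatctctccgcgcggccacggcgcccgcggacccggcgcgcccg
PER2, chr2:238288561-238288860, - strand, E-prime box at -197 and D-box at -3: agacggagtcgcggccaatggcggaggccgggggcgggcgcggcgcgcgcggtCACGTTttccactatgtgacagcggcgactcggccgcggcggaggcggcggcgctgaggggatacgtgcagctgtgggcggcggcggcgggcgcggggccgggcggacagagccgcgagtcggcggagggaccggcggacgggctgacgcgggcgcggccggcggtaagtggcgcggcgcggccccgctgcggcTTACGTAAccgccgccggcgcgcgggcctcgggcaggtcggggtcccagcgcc
NR1D2, window 2 of 2, chr3:23945871-23946170, + strand, E-boxes at -155 and -105, and, on the opposite strand, D-box at -194 and RORE at -133: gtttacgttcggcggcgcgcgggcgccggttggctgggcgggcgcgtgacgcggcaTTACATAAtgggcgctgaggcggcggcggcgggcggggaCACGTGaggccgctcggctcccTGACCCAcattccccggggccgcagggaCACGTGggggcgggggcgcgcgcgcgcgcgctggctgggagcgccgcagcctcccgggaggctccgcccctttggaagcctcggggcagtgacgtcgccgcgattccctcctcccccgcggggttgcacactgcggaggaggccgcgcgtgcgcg
TEF, window 1 of 2, chr22:41367205-41367504, + strand, E-box at -195: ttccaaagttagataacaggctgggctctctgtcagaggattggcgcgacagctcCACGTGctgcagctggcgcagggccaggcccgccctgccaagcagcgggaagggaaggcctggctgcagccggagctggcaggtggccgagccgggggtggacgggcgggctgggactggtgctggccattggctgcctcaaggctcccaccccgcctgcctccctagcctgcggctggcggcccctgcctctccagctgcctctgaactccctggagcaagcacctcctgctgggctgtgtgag

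Among the members not printed, CLOCK held an E-prime box at -187 and a RORE at -217, CRY1 an E-prime box at -89, CRY2 an E-prime box at -188 and a RORE at -65, and PER3 a D-box at -177. The second TEF window held an E-box at -193, and the single RORA window held none of the motifs. The other windows of BMAL1, NFIL3, NR1D2, CLOCK, PER3 and CRY2 held none of them either. By gene, E-boxes were found in 2 of the 10 members, E-prime boxes in 4, D-boxes in 3 and ROREs in 5. By window, E-boxes were found in 3 of the 17, E-prime boxes in 4, D-boxes in 3 and ROREs in 5. Of all 35116 RefSeq promoter windows, 7.26% held the E-box, 5.34% the E-prime box, 2.18% the D-box and 5.69% the RORE. The cAMP response element (1.85% of all windows) and the heat shock element (0.49%) were in no member's window. A match is a run of letters in the window and not a measured binding site.

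**Figure D1:**
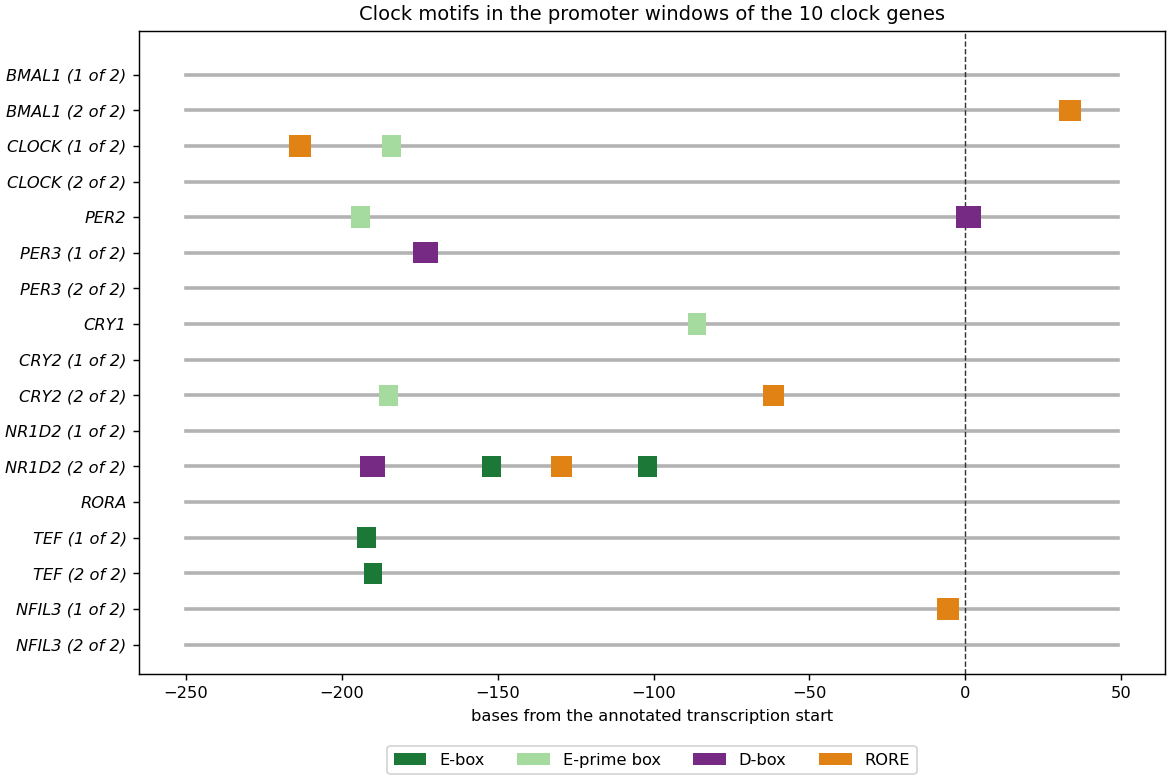
Positions of E-boxes, E-prime boxes, D-boxes and ROREs in the 17 RefSeq promoter windows of the 10 clock genes, in bases from the annotated transcription start (dashed line). NR1D2 window 2 carries 4 matches, and the ROREs of NFIL3 (-9) and BMAL1 (30) lie next to the start.

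With BI against medium, BMAL1 and NFIL3 were lower, and PER2, TEF, NR1D2 and CRY2 were higher, each by 1.5-fold or more, while CRY1 and CLOCK moved less. These sizes depend on the scaling. With the arrays centred on the spike-ins, the median gene shifted by -0.40 log2. NR1D2 was then at 0.35 (1.27-fold), CRY2 at 0.28 (1.21-fold) and CLOCK at -0.57, and BMAL1, NFIL3, PER2 and TEF stayed past 1.5-fold. The sizes of PER2 and TEF also depend on the probe set, as their next brightest differed by 0.05 and -0.03 log2. All 8 members bright enough to be tested passed an adjusted p of 0.05 (limma, Benjamini-Hochberg over 12239 genes), 5 higher and 3 lower, in a comparison in which 50.9% of all genes tested passed, 25.7% higher and 25.2% lower. At 1.5-fold or more, 6 of the 8 passed, against 7.11% of all genes tested. The median size of the change was 1.06 log2 over the 8 members and 0.16 over all genes tested. Spike-in centring gave 4 higher and 3 lower calls. Because the names were chosen with these results known, nothing is read from either count. PER3 and RORA were too dim to be tested: PER3's brightest probe set averaged 4.52 log2 and RORA's 4.42, whereas CRY2, the dimmest member tested, averaged 5.03. In cell cultures read as a whole, fewer cells with a transcript and less of it per cell cannot be told apart.

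**Figure D2:**
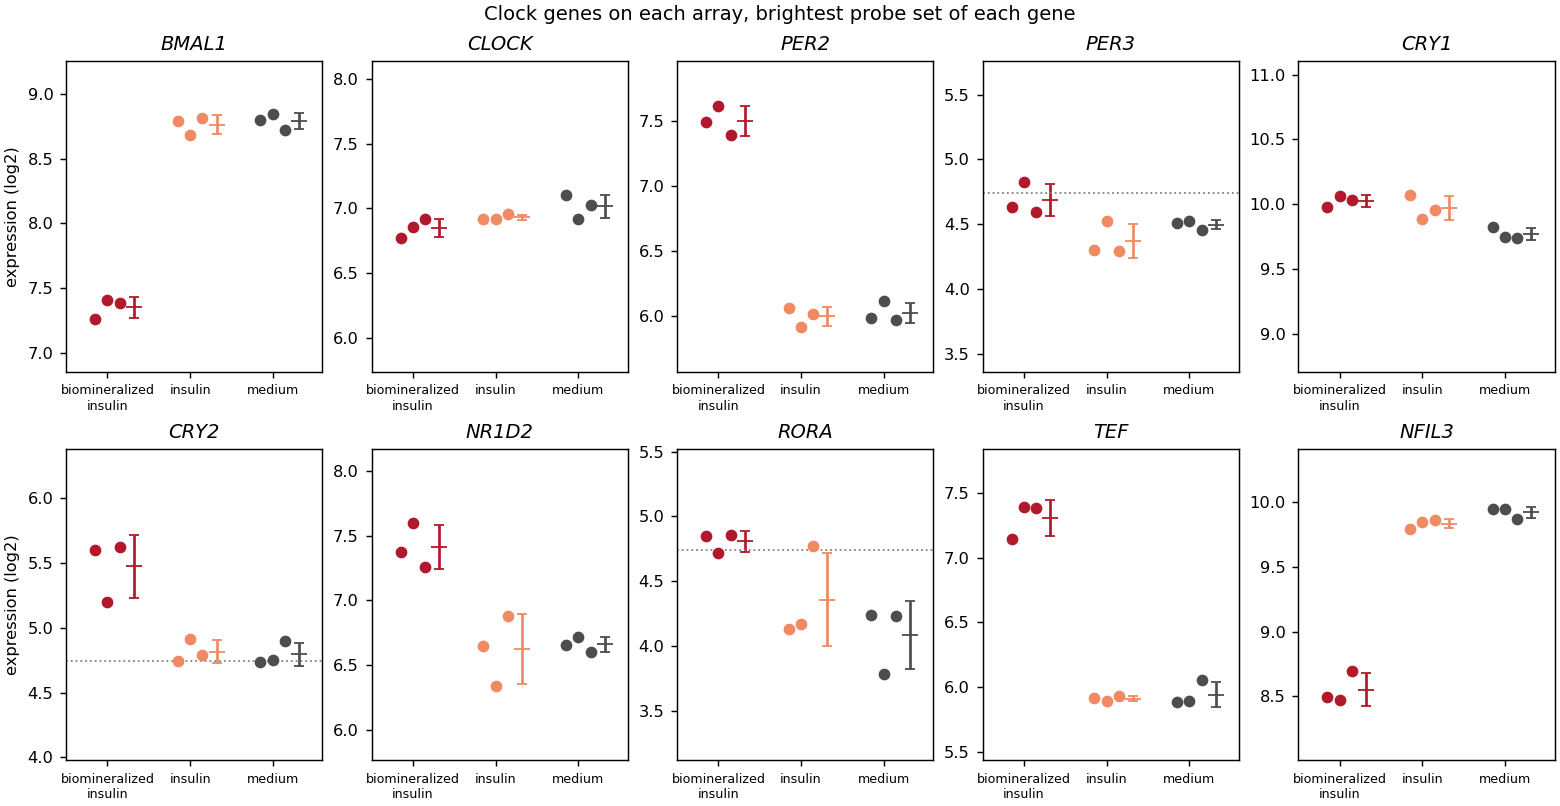
Log2 expression of the 10 clock genes on each of the 9 arrays, from the brightest probe set of each gene, by group, with the mean and SD of 3 arrays beside the points. The dotted line is the brightness filter at 4.74; every panel spans the same log2 height, and the BI arrays of BMAL1 and NFIL3 lie below, and those of PER2, TEF, NR1D2 and CRY2 above, all insulin and medium arrays.

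BMAL1 encodes the partner that CLOCK needs to bind E-boxes. Its brightest probe set (11755151_a_at) read 7.26, 7.41 and 7.38 log2 on the BI arrays, 8.79, 8.68 and 8.82 on the insulin arrays and 8.80, 8.85 and 8.72 on the medium arrays. All 3 BI arrays lay below the other 6, which overlapped each other. The difference was -1.44 ± 0.06 log2 (± SE), 2.71-fold lower with BI than with medium. A second probe set (11741091_a_at) read 5.96, 6.13 and 6.23 with BI, 7.39, 7.48 and 7.39 with insulin, and 7.64, 7.58 and 7.50 with medium. There the BI values were again the lowest (-1.47 log2 against medium), and the insulin values lay just below the medium values, at -0.15 log2, without passing the test (adjusted p = 0.37, limma over 27226 probe sets). The third (11753127_a_at), close to the brightness filter, read 4.39, 3.99 and 4.01 with BI, 5.08, 5.25 and 4.95 with insulin, and 5.33, 5.14 and 5.06 with medium. All 3 probe sets of BMAL1 thus had every BI array below every insulin and medium array, the third by -1.05 log2 against medium.

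CLOCK, the other partner of the dimer and a histone acetyltransferase, moved far less than its partner. Its brightest probe set (11727626_a_at) read 6.77, 6.85 and 6.92 log2 with BI, 6.92, 6.92 and 6.95 with insulin, and 7.10, 6.92 and 7.02 with medium. The highest BI array and the lowest medium array differed by less than 0.01 log2. The change was -0.17 ± 0.06 log2 against medium (adjusted p = 0.038 in limma's fit), and the call was lost in 11 of 23 alternative settings, among them without medium replicate 1 (adjusted p = 0.16), medium replicate 3 (0.069), BI replicate 1 (0.15) or BI replicate 2 (0.072). A dim second probe set (11749633_a_at) read 3.96, 4.33 and 4.06 with BI, 4.42, 4.42 and 4.44 with insulin, and 4.58, 4.94 and 4.51 with medium. Its 3 groups did not overlap, with BI lowest and medium highest (-0.56 log2 for BI against medium).

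PER2, a period protein of the repressor complex and an early target of the dimer, had the highest change of the members. Its brightest probe set (11758315_s_at) read 7.50, 7.62 and 7.39 log2 with BI, 6.06, 5.91 and 6.01 with insulin, and 5.98, 6.11 and 5.96 with medium. The BI arrays stood above the other 6 by more than 1 log2 unit, at 1.48 ± 0.07 against medium, or 2.79-fold, the 14th highest of 12239 genes. The other 4 probe sets of PER2 did not share this. The next brightest (11750155_a_at) read 5.68 on all 3 BI arrays, 5.59, 5.82 and 5.61 with insulin, and 5.53, 5.68 and 5.68 with medium, a difference of 0.05 log2; the same deposited value stood on 5 of the 9 arrays. The 3 dim probe sets differed by 0.11, 0.11 and 0.00 log2, and all 3 overlapped between groups. The suffix _s_at of the brightest marks a probe set whose probes match several transcripts, so the value of PER2 rests on a probe set that the others did not repeat: without probe sets ending in _s_at or _x_at its change was 0.05 (adjusted p = 0.64 in limma's fit).

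PER3, a further period gene, was below the filter with all 3 of its probe sets, and these had every BI array above every medium array. Probe set 11719045_a_at read 4.51, 4.18 and 4.57 log2 with BI, 3.46, 3.58 and 4.09 with insulin, and 3.50, 3.77 and 3.45 with medium. It differed by 0.84 log2 for BI against medium, and insulin replicate 3, at 4.09, stood apart from its group. The brightest (11751159_a_at) read 4.63, 4.83 and 4.59 with BI, 4.30, 4.52 and 4.29 with insulin, and 4.51, 4.52 and 4.46 with medium, a difference of 0.19, and the third (11745947_a_at) differed by 0.14. Fitted with no brightness filter, the gene's brightest probe set did not pass against medium (adjusted p = 0.14, limma) and passed against insulin at 0.32 log2 (adjusted p = 0.016).

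The cryptochromes are the repressor complex's other partners, and CRY1 is known as its stronger repressor. CRY1 has a single probe set (11723709_a_at), which read 9.98, 10.07 and 10.03 log2 with BI, 10.07, 9.89 and 9.96 with insulin, and 9.82, 9.75 and 9.74 with medium. The BI and insulin arrays overlapped, and both groups lay above the medium arrays. The change against medium was 0.26 ± 0.05 log2 with BI (1.19-fold); it turned to -0.15 when the arrays were centred on the spike-ins. CRY2 was read by probe set 11719310_a_at at 5.60, 5.20 and 5.63 with BI, 4.74, 4.92 and 4.79 with insulin, and 4.73, 4.75 and 4.90 with medium. Its BI arrays lay above the other 6, although BI replicate 2 was well below the other BI arrays, and the difference was 0.68 ± 0.11 (1.60-fold). The insulin and medium arrays, with means of 4.81 and 4.79, lay close to the brightness filter at 4.74. Its dim second probe set (11719311_a_at) differed by 0.08 with overlapping groups.

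The nuclear receptors of the BMAL1 loop both read higher with BI on their brightest probe sets. NR1D2 was read by probe set 11722088_s_at at 7.37, 7.59 and 7.26 log2 with BI, 6.65, 6.34 and 6.88 with insulin, and 6.65, 6.72 and 6.61 with medium. The lowest BI array was above the highest of the others, and the difference from medium was 0.75 ± 0.11 (1.68-fold). Like the brightest of PER2, this probe set ends in _s_at, and without _s_at and _x_at probe sets NR1D2 had no value. A dim probe set of NR1D2 (11751940_a_at) read 4.86, 4.78 and 4.60 with BI, 4.21, 4.22 and 4.20 with insulin, and 4.31, 4.31 and 4.22 with medium, again with the BI arrays on top (0.47). Its remaining probe sets differed by 0.26, with groups apart, and by 0.30, with groups that overlapped. RORA, the activator at the same elements, was below the filter throughout. Its brightest probe set (11725676_a_at) read 4.85, 4.71 and 4.86 with BI, 4.13, 4.17 and 4.77 with insulin, and 4.24, 3.78 and 4.23 with medium. The BI arrays were above the medium arrays by 0.72 log2, but insulin replicate 3 reached into the BI range, and the other probe sets of RORA differed by 0.12 and 0.07 with overlap. Fitted with no brightness filter, the brightest passed against medium (adjusted p = 0.0010, limma) and against insulin (0.45 log2, adjusted p = 0.033), although the BI and insulin arrays overlapped.

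TEF and NFIL3, the D-box factors among the members, moved in opposite directions on the probe sets that stood for them. DBP, a PAR bZIP factor outside the members, was lower with BI against medium (-0.27 log2). TEF, the activator, was read by probe set 11724304_a_at at 7.15, 7.39 and 7.38 log2 with BI, 5.91, 5.89 and 5.93 with insulin, and 5.88, 5.89 and 6.05 with medium. The BI arrays were more than 1 log2 unit above the rest, at 1.36 ± 0.08 against medium, or 2.57-fold. A second TEF probe set (11724305_a_at) was flat, from 5.02 to 5.16 on the 9 arrays with 1 deposited value on 5 of them, and its difference was -0.03; the mean of TEF's probe sets differed by 0.67. NFIL3, the repressor, has a single probe set (11743010_at), which read 8.49, 8.47 and 8.70 with BI, 9.79, 9.85 and 9.86 with insulin, and 9.94, 9.95 and 9.87 with medium. Its BI arrays were more than 1 log2 unit below the others, at -1.37 ± 0.05 against medium, or 2.58-fold lower.

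Over the 26 probe sets, 11 had all BI arrays above all medium arrays, 6 had them below, and 9 overlapped. The 17 without overlap are 65.4% of the members' probe sets, beside 37.3% of the 44994 probe sets with 1 gene symbol. Of the 12 past the filter, 10 passed the probe set fit, 5 higher and 5 lower, in which 46% of all probe sets tested passed. In order of the fitted change, TEF was the 16th highest of 12239 genes, NR1D2 the 148th and CRY2 the 215th, while BMAL1 was the 55th lowest and NFIL3 the 62nd lowest. No member had probe sets whose groups lay apart in opposite directions, and in PER2, CRY2, RORA and TEF the brightest probe set alone had groups that lay apart.

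**Figure D3:**
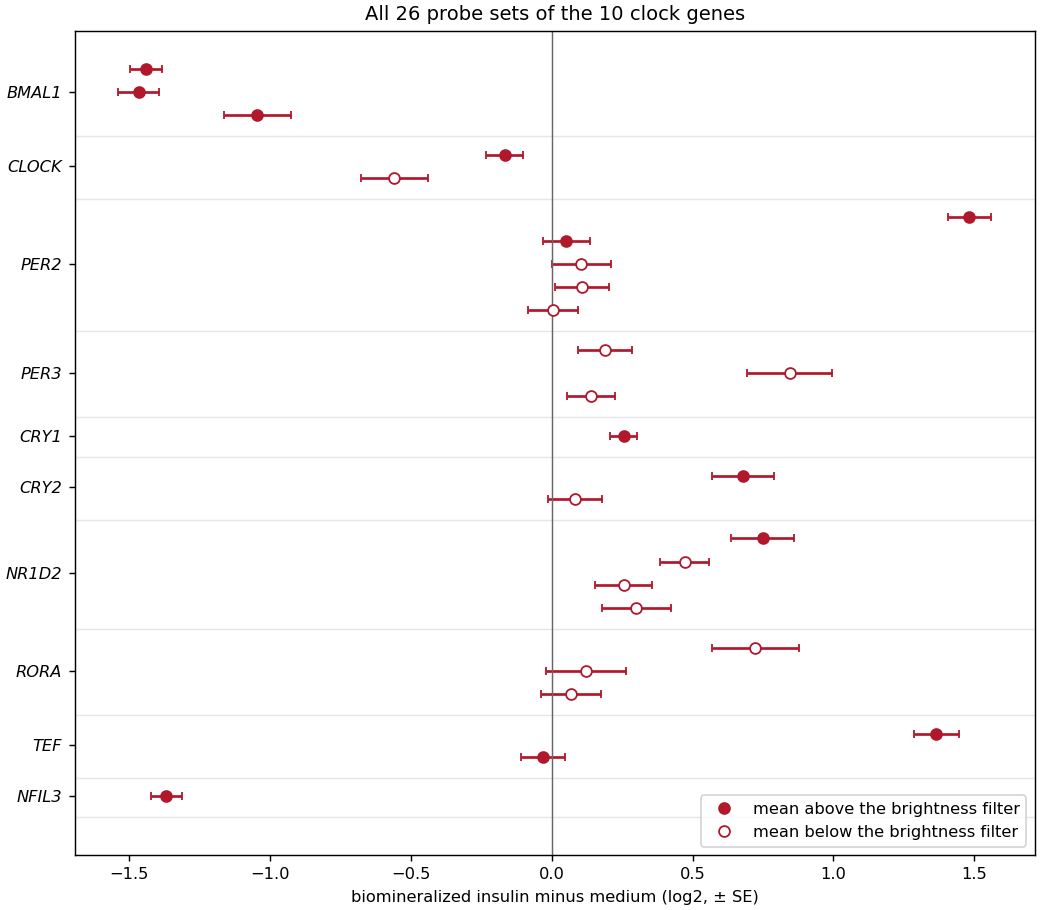
Difference in log2 expression, BI minus medium, for all 26 probe sets of the 10 clock genes, with bars of ± 1 SE from a fit of all probe sets without a brightness filter; filled points are past the filter and open points below it. The 3 BMAL1 probe sets lie between -1.47 and -1.05, and in PER2 and TEF the brightest probe set (1.48 and 1.36) stands apart from the others.

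Against insulin, the same 6 genes differed by 1.5-fold or more. BI minus insulin was -1.41 for BMAL1, -1.28 for NFIL3, 1.51 for PER2, 1.39 for TEF, 0.79 for NR1D2 and 0.66 log2 for CRY2. This comparison shares its BI arrays with the one against medium, so it is no second measurement of them. In it 6 of 8 members passed the test, 4 higher and 2 lower, and all 6 by 1.5-fold or more, while 44.4% of all genes tested passed (21.1% higher and 23.3% lower), 5.2% by 1.5-fold or more. CLOCK (-0.08, 95% confidence interval -0.22 to 0.05) and CRY1 (0.05, -0.05 to 0.15) did not pass, and differences of up to these bounds remain possible. Spike-in centring shifted the median gene by -0.39 here; the split became 4 higher and 4 lower, with CRY1 at -0.33 and CLOCK at -0.47, and NR1D2 (0.40, 1.32-fold) and CRY2 (0.27, 1.21-fold) were then under 1.5-fold. Of the members' 26 probe sets, 9 had the BI arrays above all insulin arrays and 6 below, together 57.7%, beside 34.1% of all probe sets with 1 gene symbol. Of the 12 past the filter, 8 passed the probe set fit, 4 in each direction, as did 38.9% of all probe sets tested.

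Insulin against medium moved the members little. Only CRY1 passed, at 0.20 ± 0.05 log2 (1.15-fold, adjusted p = 0.033 in limma's fit), in a comparison in which 2.45% of all genes tested passed (1.25% higher and 1.2% lower), 0.0163% by 1.5-fold or more. That call was lost in 10 of 23 alternative settings, among them without medium replicate 2 (adjusted p = 0.14) or 3 (0.082), insulin replicate 1 (0.13) or 3 (0.12), or BI replicate 3 (0.051). In the probe set fit CRY1 was just short of the threshold (adjusted p = 0.056), and of all probe sets tested 1.23% passed. The insulin arrays of NFIL3 lay below the medium arrays without passing (-0.09 log2, adjusted p = 0.47). For the other members the difference lay between -0.08 for CLOCK and 0.02 for CRY2, and the intervals reached from -0.27 to 0.19 for NR1D2 and from -0.21 to 0.25 for CRY2, the widest of the 8. Among the 26 probe sets 1 was higher and 4 were lower on all insulin arrays, together 19.2%, beside 13.3% of all probe sets with 1 gene symbol.

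**Figure D4:**
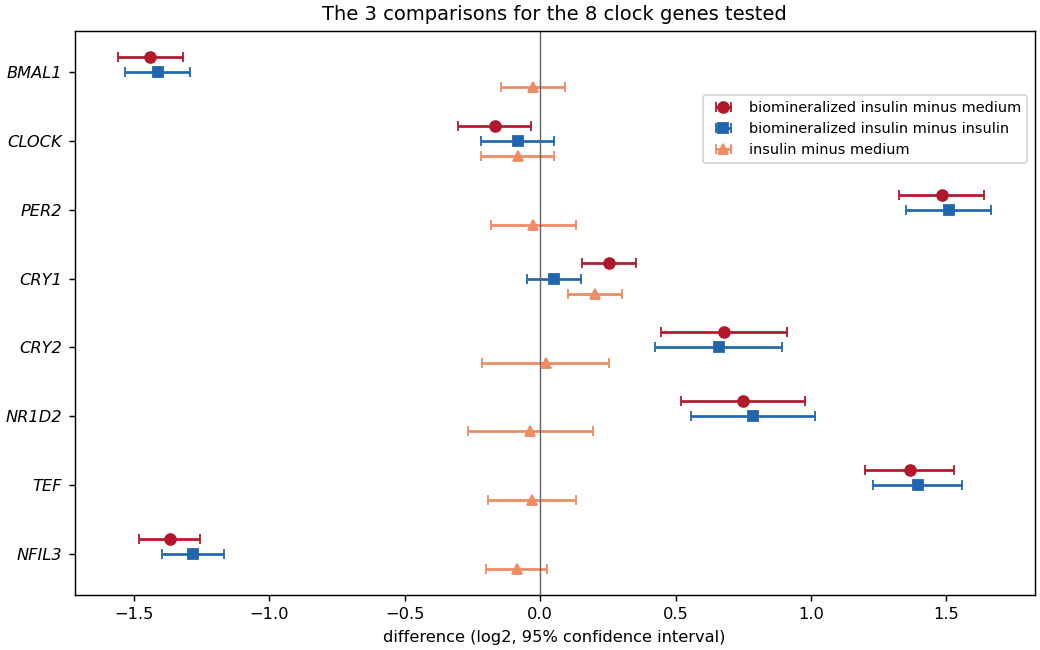
Log2 differences of the 8 clock genes tested in the 3 comparisons, BI minus medium (circles), BI minus insulin (squares) and insulin minus medium (triangles), with 95% confidence intervals from limma's fit of all genes. The circles and squares of BMAL1, NFIL3, PER2, TEF, NR1D2 and CRY2 lie close together and away from 0, whereas the triangles lie between -0.09 and 0.20.

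The genes whose pattern over the 9 arrays was most like that of PER2 and of BMAL1 were found by the root mean square difference after centring each gene on its medium mean. For PER2 these were ZC3HAV1 (0.11 log2), TEF (0.13), CGA (0.13), TNFRSF10D (0.16) and LPCAT1 (0.19). PER2 is read here by its brightest probe set, whose change its other probe sets did not share. TEF is itself a member, chosen with these results known, and its change ranked 16th beside PER2's 14th, so nothing is read from its place here. For BMAL1 they were JAG1 (0.07), MB (0.07), GPR37 (0.08), GDPD1 (0.09) and BLTP3A (0.09). All 10 values cover the same 9 arrays and are descriptions.

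Beyond the members, 57 further genes of the clock, its inputs and its outputs, called other clock genes here, were listed by role. Of them 50 were analysed here, and 43 of these were bright enough to be tested. The lists were chosen with earlier results of these data known, so nothing is read from their shares, here or below. With BI against medium 29 of the 43 passed, 12 higher and 17 lower, or 67.4%, beside 50.9% of all genes tested (25.7% higher and 25.2% lower), but only TSC22D3 and FKBP5 by 1.5-fold or more (4.65%, beside 7.11% of all genes tested), and the median change was 0.04 log2 beside 0.02 over all genes tested. After spike-in centring the split was 0 higher and 28 lower, so the higher calls among these genes below hold relative to the median gene. Against insulin 26 passed, 12 higher and 14 lower, or 60.5% beside 44.4% of all genes tested, of which 3 by 1.5-fold or more: TSC22D3, CREB1 (-0.68) and KLF10 (-0.60), CREB1 being named here after its values were seen. Insulin against medium gave 0 calls among the 43 in limma's fit, with 7 at an unadjusted p under 0.05. NR1D1 was not analysed here.

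Among the closest relatives of the members the changes lay between -0.27 log2 for DBP and 0.32 for PER1. Of the 6 core and loop genes tested, 2 rose with BI against medium (33.3%, beside 50.9% of all genes tested). PER1, the third period gene, was higher by 0.32 ± 0.08 log2 (adjusted p = 0.0019), while its dim probe sets differed by -0.22 and 0.01. BHLHE40, a repressor at E-boxes, was higher by 0.21 (adjusted p = 0.0032). NPAS2, which can stand in for CLOCK, differed by 0.15 (adjusted p = 0.086), BMAL2 by 0.11 (0.28), BHLHE41 by 0.15 (0.32) and TIMELESS by -0.09 (0.096), and none of them passed. DBP, a PAR bZIP factor like TEF, fell (-0.27 ± 0.06 log2, adjusted p = 0.0019; second probe set -0.18), while HLF, the third of that family, was below the filter at 4.73 log2, as was CIART at 3.54. All adjusted p-values of other clock genes come from limma's fit over all 12239 genes.

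Kinases and ubiquitin factors set how long the PER and CRY proteins last, and 5 of 13 rose and 4 fell (69.2%, beside 50.9% of all genes tested). CSNK1A1, a casein kinase 1 gene, fell (-0.56 ± 0.03 log2, adjusted p = 6.7e-10), although its 11 probe sets spread from -0.68 to 0.04, and GSK3B, a kinase that insulin signalling is known to inhibit, fell too (-0.52 ± 0.04, 1.6e-08; both probe sets at -0.52 and -0.46). CSNK1D, which phosphorylates PER proteins, was higher by 0.29 (2.9e-06) with a probe set at -0.28, and USP7, a deubiquitinase, by 0.32 (3.3e-06) with a probe set at -0.03. Among the 9 cofactors 3 rose and 5 fell (88.9%, beside the same 50.9%). SIRT1, a deacetylase that acts on the dimer and on PER2, was lower (-0.57 ± 0.05, 1.1e-07), as were CREBBP, a histone acetyltransferase (-0.38 ± 0.04, 9.7e-07; 1 probe set at 0.02), and SIN3A, a corepressor scaffold (-0.34, 1.1e-05; 1 probe set at 0.05). NONO, a PER-binding protein, was higher by 0.30 ± 0.03 (8.1e-08), with all 6 probe sets between 0.07 and 0.34.

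The list of factors that act on PER genes from outside the loop also holds TSC22D3 and FKBP5, which glucocorticoids induce. It gave 1 higher and 4 lower calls among 8 (62.5%, beside 50.9% of all genes tested), both of these genes among the lower. TSC22D3, a glucocorticoid-induced gene, was the lowest of all listed genes at -1.87 ± 0.04 log2 (adjusted p = 4.6e-16), with its other probe sets at -2.13 and -1.32. FKBP5, also induced by glucocorticoids, fell (-0.61 ± 0.05, 2.3e-08), and so did NR3C1, the glucocorticoid receptor itself (-0.37 ± 0.04, 3.2e-07), whose 10 probe sets lay between -0.61 and -0.33. The part of glucocorticoids in these values was not tested. SRF, the serum response factor, rose (0.47 ± 0.06, 3.4e-06), although its second, dimmer probe set was at -0.03. Of 6 output genes in liver tested, 1 rose and 3 fell (66.7%): KLF10, a clock-driven repressor, was at -0.52 ± 0.05 (2.4e-07), NAMPT, which makes an NAD precursor, at -0.18 (0.0033), ALAS1, the first enzyme of haem synthesis, at -0.19 (0.0049), and PPARA, a lipid-sensing receptor, at 0.21 (0.0074). KLF15, CYP7A1 and GYS2 were below the filter.

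**Figure D5:**
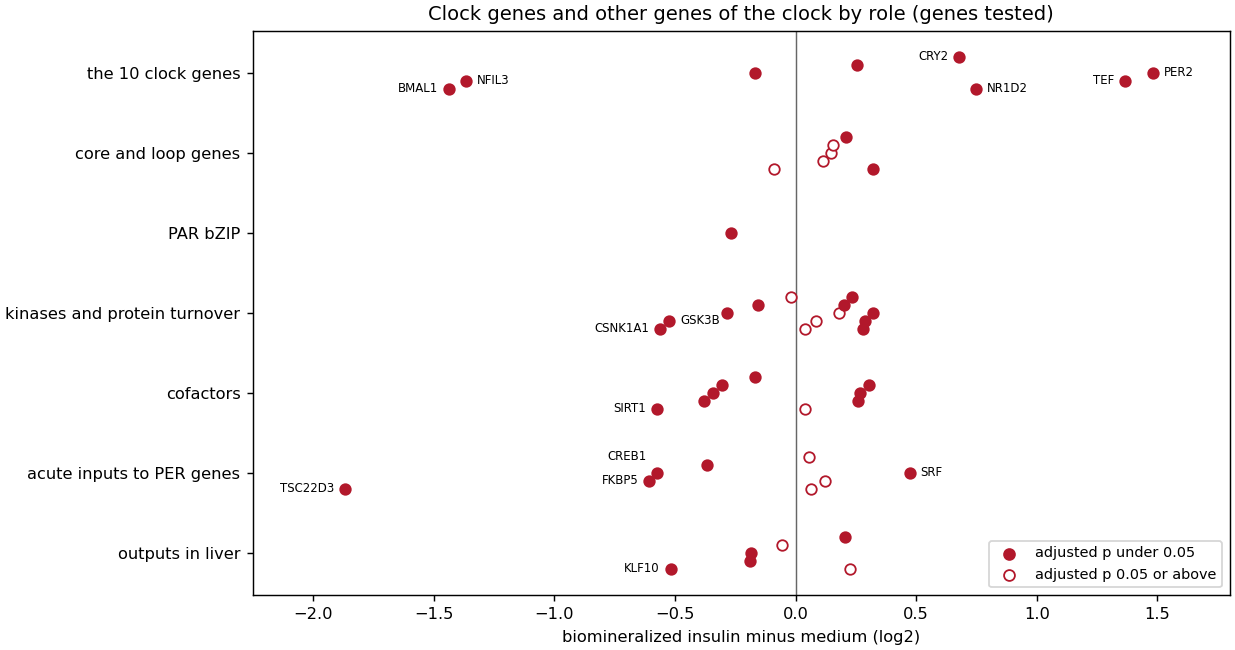
Log2 difference, BI minus medium, of the 8 clock genes tested (top row) and of the 43 other clock genes tested, by role; filled points have an adjusted p under 0.05 in limma's fit of all genes. In the top row 6 of 8 points lie at or beyond 1.5-fold, from BMAL1 at -1.44 to PER2 at 1.48. Each point is the gene's brightest probe set, and the other probe sets of PER2 did not share its change. Of the other listed genes only TSC22D3 (-1.87) and FKBP5 (-0.61) lie that far from 0.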

How the data were processed

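Affymetrix 3' arrays of 3 BI, 3 insulin and 3 medium samples were analysed from the authors' deposited log2 values per probe set (range 2.02 to 14.3); the scale was read from the values, and for the software behind them the sources used here give no name. The platform annotation gave 44994 of the 49395 probe sets 1 gene symbol, 1832 several and 2473 none, and 102 were controls; 44967 symbols were updated through RefSeq (GRCh38.p14). Probe sets in the dimmest 40% by mean over all arrays (under 4.74) were left out, and the brightest remaining probe set stood for a gene. limma 3.58.1 (R 4.3.3; lmFit, eBayes with an intensity trend, group means, 6 residual degrees of freedom) was fitted to 12239 genes and to 27226 probe sets, with Benjamini-Hochberg adjustment over each; a call is an adjusted p under 0.05. The method was tested on simulated data. Signal over background was not examined, and the number of arrays limits the precision. Members, lists, tests and alternatives were chosen with earlier results of these data known. All members and the 10 core and PAR bZIP genes nearest to them are named, and of each other list up to 4 called genes with the lowest p. Alternatives varied the normalization, filter, probe set rule, variance model, threshold, replicate block and arrays. Replicates sharing a number did not deviate together (r = -0.23 to 0.17 over 9 pairs, 1 of them over 0.1), so numbers were not used as pairs. Some listed genes are not reported here.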

Additional observations from a re-analysis of the deposited data

Results flagged for a closer look

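In 6 probe sets of the clock genes that were too dim to enter the tests, all 3 BI arrays lay above all 3 medium arrays. They are the PER3 probe sets 11719045_a_at (0.844 log2, BI minus medium), 11751159_a_at (0.189) and 11745947_a_at (0.139), the NR1D2 probe sets 11751940_a_at (0.471) and 11722087_a_at (0.255), and the RORA probe set 11725676_a_at (0.723). Among the members' 14 dim probe sets, 1 other, of CLOCK, had its BI arrays below the medium arrays, and 7 overlapped. In this comparison 37.3% of all probe sets with 1 gene symbol, bright and dim together, did not overlap in either direction. In limma's fit of all probe sets without a brightness filter, PER3 11751159_a_at (adjusted p = 0.17), PER3 11745947_a_at (0.26) and NR1D2 11722087_a_at (0.079) did not pass against medium. PER3 11719045_a_at (0.00042), NR1D2 11751940_a_at (0.00067) and RORA 11725676_a_at (0.0021) passed in that fit.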

How the results depend on the processing

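Over 546 alternative values of the 8 tested genes, 509 kept their direction and their side of the threshold, 23 lost the call, 1 gained it and 13 changed sign. Of these, 11 belong to changes near 0 for insulin against medium that no setting called: PER2 at 0.0091 with the mean of its probe sets and 0.044 without _s_at and _x_at probe sets, and, without single arrays, PER2 (-0.057 to 0.019), BMAL1 (-0.060 to 0.014), CRY2 (-0.030 to 0.072), TEF (-0.061 to 0.025) and NR1D2 (-0.16 to 0.10). The remaining 2 are CRY1 under spike-in centring, at -0.15 (adjusted p = 0.16) for BI against medium and -0.33 (adjusted p = 0.0017) for BI against insulin, over alternatives for BI against medium between 4.9e-05 and 0.16. That centring moved the median of all genes by -0.40 and -0.39, and the members' calls became 4 higher and 3 lower against medium and 4 higher and 4 lower against insulin; the other clock genes had 0 higher with 28 lower, and 0 higher with 31 lower. Without _s_at and _x_at probe sets PER2 was at 0.05 (0.64) against medium and 0.01 (0.95) against insulin, and NR1D2 had no value; CRY2 had none without the dimmest 60%. The member count for insulin against medium, 1, was 0 with only the 6 arrays compared, median centring, spike-in centring, the probe set of largest variance, no intensity trend, an adjusted p under 0.01 or 1.5-fold, and 0 to 1 without single arrays. The member probe sets called there, 0 (1 at an unadjusted p under 0.05), were 1 with quantile normalization, without the dimmest 60% or with array weights, and 0 to 1 without single arrays; those for BI against insulin, 8, were 13 without a filter and 14 without the dimmest 20%. Of the other clock genes for insulin against medium, 1 was called without the dimmest 60%, with the probe set of largest variance or with array weights, and 0 to 2 without single arrays; for BI against insulin the 26 calls were 17 without _s_at and _x_at probe sets and 3 at 1.5-fold, and for BI against medium the 29 were 2 at 1.5-fold. With the replicate number as a block the members called for BI against medium were 7, CLOCK being lost (adjusted p = 0.053), and no other member's call changed. The causes were not tested.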
